A study of Homo sapiens with 9 samples.

Results

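The cytochrome P450 (CYP) and glucuronosyltransferase (UGT) genes were examined in 3 human pancreatic cancer sublines. Members were chosen by symbol alone, as every row of the count table named CYP with a family number, a subfamily letter and a gene number, or named UGT1A, UGT2A or UGT2B with a number. The rule found 75 of the 42717 genes, which were 56 CYP, 9 UGT1A and 10 UGT2 genes. The UGT1A genes share exons and were summed to 1 locus, which left 67 units, called members below.

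The study sequenced RNA of the lines S2-007, S2-020, S2-028, with 3 libraries of each, to compare sublines that differ in where the protein maspin lies in the cell. All 3 are sublines of SUIT-2, a pancreatic ductal adenocarcinoma line, and all were grown untreated in DMEM with inactivated fetal bovine serum. Maspin lay in nucleus and cytoplasm in S2-007 (panMaspin) and predominantly in the cytoplasm in S2-028 (cytMaspin), whereas S2-020 held only a weak signal for it. Each group is 1 established line, so a difference between groups is a difference between these lines and cannot be told apart from any other difference that the lines have acquired. The labels do not say whether the 3 libraries of a line came from separate cultures, so p-values measure the spread between these libraries, which may be technical.

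P450 enzymes are haem proteins of the endoplasmic reticulum or the mitochondrion that insert 1 oxygen atom into a substrate, with electrons passed on by a reductase such as POR. Families 1 to 3 act mainly on drugs and other foreign compounds, whereas other families make or break down steroids, bile acids, vitamin D, retinoic acid and fatty acids. UGT enzymes join glucuronic acid, taken from UDP-glucuronate, to bilirubin, drugs and hormones so that these can be excreted. Liver and gut hold the highest levels of many of these genes, where nuclear receptors and transcription factors such as HNF4A, AHR, NR1I2 and VDR are known to control them.

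Libraries held 60328748 to 86253923 counted reads, and the members together took 0.0778% to 0.0975% of it. Of 8 markers of pancreatic duct epithelium all were at 1 CPM (counts scaled to library size, with TMM factors) or more in every line, and their summed level was 9624 to 10143 CPM in S2-007, 4394 to 5512 in S2-020 and 15248 to 17852 in S2-028. S2-020 was low in several, with KRT19, a duct keratin, at 103 CPM against 2123 in S2-007 and 1933 in S2-028. Of 14 hepatocyte markers, 12 in S2-007, 13 in S2-020 and 12 in S2-028 were under 1 CPM, and APOA2, APOC3 and TTR had at most 3 counts in every library. The summed hepatocyte markers reached 24 to 28.1, 12.9 to 15.5 and 17.1 to 20 CPM, mostly from TF and SERPINA1. Of 12 enterocyte markers 7, 7 and 10 were under 1 CPM, and their sum was 397 to 434 CPM in S2-007, 755 to 906 in S2-020 and 17.9 to 21.1 in S2-028. LGALS4 and ANPEP led this sum in S2-007 and S2-020, and CDX2 and VIL1 in S2-028. Among 12 markers of fibroblasts, endothelium and blood cells the sum was 304 to 380, 15.3 to 17.6 and 11.9 to 16.8 CPM, and LYZ, lysozyme, made up 332 CPM of it in S2-007. The blood cell marker PTPRC was at 0.301, 0.186 and 0.293 CPM.

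The UGT1A locus shows why its rows were summed. It lies on the plus strand of chr2:233617633-233773300 (GRCh38.p14), where 9 genes each start at a first exon of their own and then join the same exons 2 to 5. The shared exons span 1479 bases, which is 60.2% to 62.6% of each transcript in GENCODE v44. The end of the first exon (lower case, 25 bases) and the start of exon 2 (capitals, 25 bases) are shown for the 3 genes with the highest counts and for UGT1A8, so that the shared part can be seen. Exon 2 starts at base 233767034.
UGT1A10: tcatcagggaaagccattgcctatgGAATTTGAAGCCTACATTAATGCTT
UGT1A1: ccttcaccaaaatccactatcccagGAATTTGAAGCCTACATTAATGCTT
UGT1A6: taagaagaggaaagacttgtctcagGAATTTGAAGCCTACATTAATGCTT
UGT1A8: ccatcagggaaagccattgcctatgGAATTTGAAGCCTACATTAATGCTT
A read that lies within exons 2 to 5 cannot be assigned to any 1 of these genes. In words of 31 bases, 60% to 83.5% of each UGT1A transcript occurred in another gene, in each case another UGT1A gene.

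Promoters of 54 of the 75 genes were found in the RefSeq table, as windows from 250 bases before to 50 bases after a gene's start, 68 windows in all because some genes have several. CYP4F12, CYP2C18, CYP24A1, CYP27B1, CYP1B1 and UGT1A10 are among the 21 genes without an entry. A pair of short motifs was searched on both strands: GCGTG (the core of the AHR response element) and AGGTCA (the hexamer that nuclear receptors bind). GCGTG was in 19 of 68 member windows (27.9%) and in 36.5% of all 35116 windows, and AGGTCA was in 19 of 68 (27.9%) against 13.8%. GCGTG was in a window of 6 of the 8 UGT1A genes with an entry, namely UGT1A3, UGT1A4, UGT1A6, UGT1A7, UGT1A8 and UGT1A9. A match is a description of the letters and not evidence of a bound site.

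4 windows are printed 5′ to 3′ (GRCh38.p14). UGT1A6 and UGT1A8 are shown as part of the locus that fell in both lines against S2-007, CYP1A1 because AHR was measured below, and CYP2B6 because its level differed between all 3 lines. Capitals mark GCGTG or its reverse complement in the first 3 and AGGTCA or its reverse complement in CYP2B6. Positions count from the first base of the gene, so that the match starts at -200 in UGT1A6, at -26 in UGT1A8, at -57 in CYP1A1 and at -164 in CYP2B6. The UGT1A6 window is that of the earlier of its starts. The window of its later start, chr2:233692640-233692939, held no GCGTG. That window contains base 233692890, where the first exon of the UGT1A6 transcript shown above starts. The windows are chr2:233691452-233691751 (plus strand), chr2:233617383-233617682 (plus strand), chr15:74725479-74725778 (minus strand) and chr19:40991032-40991331 (plus strand).
UGT1A6: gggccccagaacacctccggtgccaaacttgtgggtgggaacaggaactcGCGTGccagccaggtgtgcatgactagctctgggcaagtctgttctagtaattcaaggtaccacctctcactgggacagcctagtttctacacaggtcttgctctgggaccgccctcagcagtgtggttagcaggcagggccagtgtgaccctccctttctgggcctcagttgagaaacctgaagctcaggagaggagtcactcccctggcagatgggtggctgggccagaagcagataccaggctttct
UGT1A8: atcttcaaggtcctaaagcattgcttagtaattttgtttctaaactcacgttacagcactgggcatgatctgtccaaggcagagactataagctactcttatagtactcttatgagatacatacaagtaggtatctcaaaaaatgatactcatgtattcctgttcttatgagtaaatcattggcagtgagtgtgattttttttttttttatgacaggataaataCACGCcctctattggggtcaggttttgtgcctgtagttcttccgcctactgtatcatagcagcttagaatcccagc
CYP1A1: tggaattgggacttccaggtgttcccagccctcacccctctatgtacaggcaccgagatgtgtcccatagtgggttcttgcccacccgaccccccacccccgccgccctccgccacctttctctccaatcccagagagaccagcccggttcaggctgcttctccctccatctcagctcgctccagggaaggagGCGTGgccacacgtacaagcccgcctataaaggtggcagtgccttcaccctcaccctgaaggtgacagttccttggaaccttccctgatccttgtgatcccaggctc
CYP2B6: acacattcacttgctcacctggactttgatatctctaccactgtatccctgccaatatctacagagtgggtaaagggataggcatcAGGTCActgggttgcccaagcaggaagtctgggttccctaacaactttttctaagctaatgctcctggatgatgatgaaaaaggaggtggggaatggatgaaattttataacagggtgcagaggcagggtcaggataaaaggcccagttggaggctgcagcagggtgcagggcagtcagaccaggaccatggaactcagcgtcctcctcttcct

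Most members were hardly expressed. Of the 67, 40 had a mean under 1 CPM in every line, 27 reached 1 CPM in at least 1 line and 16 reached 10 CPM. All 10 UGT2 genes and all 6 P450 genes of steroid hormone synthesis stayed under 1 CPM in every line, and so did 11 of 21 members of families 1 to 3, 8 of 14 of the fatty acid group, 3 of 7 of the cholesterol and bile acid group and 2 of the 3 CYP26 genes. All 3 vitamin D genes and both members of unsettled role, CYP20A1 and CYP27C1, reached 1 CPM. No member had at most 3 counts in all 9 libraries.

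**Figure D1:**
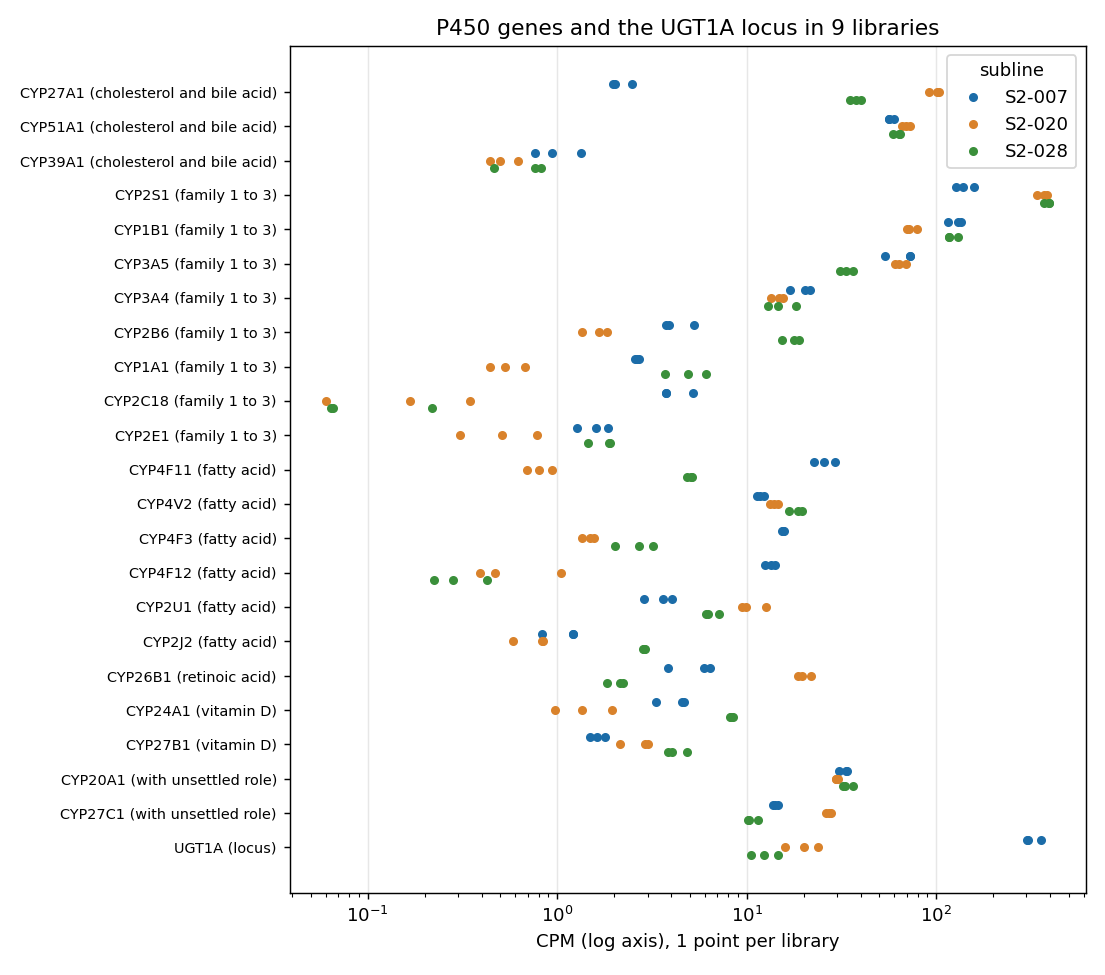
CPM on a log axis of the 23 members described singly, grouped by role (in brackets) and with 1 point for each of the 9 libraries, coloured by subline. The UGT1A locus lies between 301 and 359 CPM in S2-007 and between 10.5 and 23.8 CPM in the other lines, whereas CYP27A1 lies between 1.98 and 2.48 CPM in S2-007 and at 35 CPM or more in the others.

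The leading gene differed between the lines. The UGT1A locus took 34.3% to 37.8% of the members' summed CPM in the S2-007 libraries, whereas CYP2S1 took 43% to 44.6% in S2-020 and 47.1% to 48.5% in S2-028. The level and share of UGT1A are too high if reads in its shared exons were counted in several rows, which is not known here. The sum over all members was 876 to 950 CPM in S2-007, 800 to 862 in S2-020 and 792 to 824 in S2-028. Per kilobase of transcript, the mean level in S2-007 was 133 CPM for UGT1A, 54.3 for CYP2S1, 38.7 for CYP3A5 and 24.4 for CYP1B1. In S2-020 it was 140 for CYP2S1, 52.3 for CYP27A1, 37.6 for CYP3A5 and 22 for CYP51A1. In S2-028 it was 149 for CYP2S1 and 23.3 for CYP1B1, followed by CYP27A1 at 19.8, CYP51A1 at 19.8 and CYP3A5 at 19.6.

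Genes were called between lines at an adjusted p under 0.05 (edgeR's quasi-likelihood test, Benjamini-Hochberg over all genes tested) and at least a 1.5-fold change. In S2-028 against S2-007, 9 of 45 members tested were higher (20%, against 10.2% of all 26363 genes tested) and 8 were lower (17.8%, against 8.17%). In S2-020 against S2-007, 6 of 49 were higher (12.2%, against 9.57% of 26649 genes) and 12 were lower (24.5%, against 12.1%). In S2-028 against S2-020, 10 of 46 were higher (21.7%, against 12.1% of 26023 genes) and 7 were lower (15.2%, against 10.1%). The median log2 fold change of the members tested was -0.04, -0.39 and 0.07 in that order, and that of all genes tested was 0.00, -0.05 and 0.02. Each pair of comparisons shares the 3 libraries of a line. In all, 23 members were called in at least 1 comparison, of which 3 stayed under 1 CPM in every line.

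**Figure D2:**
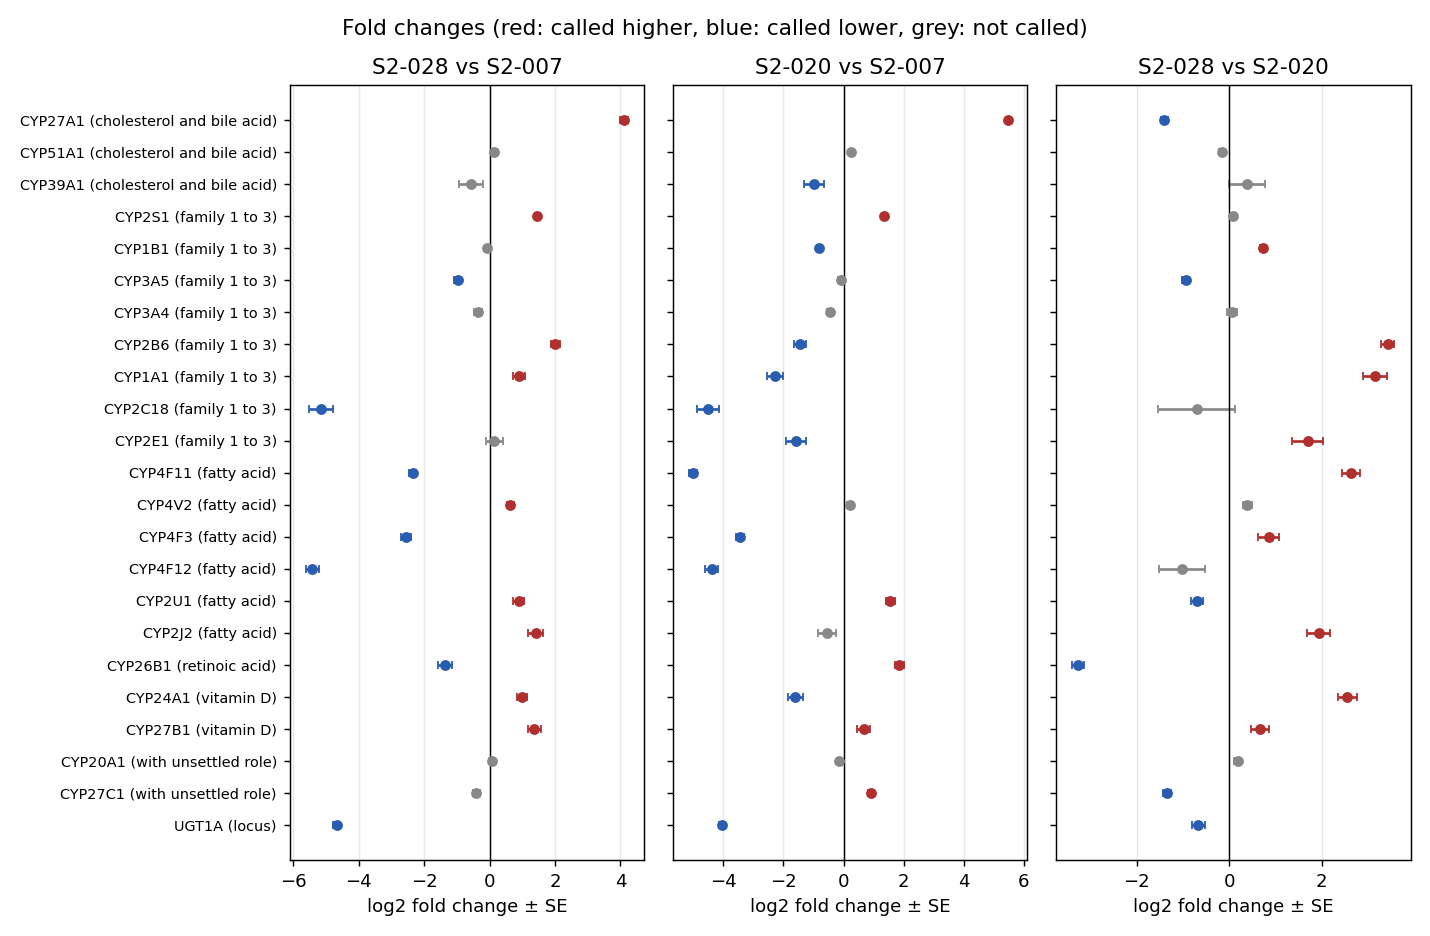
Log2 fold changes with their standard errors for the 23 members described singly, in 1 panel per comparison of 6 libraries. Red points were called higher, blue points lower, and grey points were not called. UGT1A, CYP4F12, CYP4F11, CYP4F3 and CYP2C18 lie to the left of 0 in both comparisons with S2-007, and CYP27A1, CYP2S1, CYP2U1 and CYP27B1 to the right in both.

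As the sum of its rows, the UGT1A locus was the most abundant member in S2-007, and it fell strongly in both other lines. The lowest row of a library, taken for all 9 rows, made up 49.3% to 50.2% of the sum in S2-007. It made up 39% to 45.1% in S2-020 and 30.4% to 32.4% in S2-028. If reads in shared exons were counted in several rows, which is not known here, the summed levels are too high and unequally so between lines. Its level was 301, 359 and 304 CPM in the S2-007 libraries, 23.8, 20.1 and 15.9 in S2-020, and 12.4, 14.6 and 10.5 in S2-028. Every S2-007 library lay more than 10-fold above every library of the other lines, and the lowest S2-020 library lay just above the highest of S2-028. Against S2-007 the locus was 25.7-fold lower in S2-028 (log2 fold change -4.68, SE 0.103, adjusted p = 1.69e-18 by edgeR) and 16.5-fold lower in S2-020 (-4.04, SE 0.11, adjusted p = 1.62e-16). In bulk RNA, fewer cells that express a gene and less RNA per cell cannot be told apart. Between S2-028 and S2-020 the locus was 1.59-fold lower in S2-028 (-0.67, SE 0.137, adjusted p = 4.85e-04), and this call was lost without S2-028 replicate 3 (-0.55) or without S2-020 replicate 1 (-0.53), when the sum was replaced by the UGT1A10 row (-0.27), and when a change beyond 1.5-fold was tested. The 50 nearest genes tested on the chromosome that are not members had a median log2 fold change of 0.02, -0.17 and 0.26 in S2-028 against S2-007, S2-020 against S2-007 and S2-028 against S2-020.

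The single UGT1A rows were read only as far as the shared exons allow. UGT1A10, a form known from the gut rather than the liver, had the highest row in all 9 libraries, with 7780, 9109 and 7852 reads in S2-007, 648, 558 and 369 in S2-020, and 380, 401 and 299 in S2-028. UGT1A1, the enzyme that conjugates bilirubin, followed in S2-007 with 4116, 4965 and 4028 reads, against 194, 165 and 79 in S2-020 and 65, 83 and 44 in S2-028. UGT1A6, which acts on small phenols, had 2801, 3369 and 2773 reads in S2-007. In S2-007 the 6 lowest rows (UGT1A3, UGT1A4, UGT1A5, UGT1A7, UGT1A8 and UGT1A9) lay between 1235 and 1381, 1466 and 1631, and 1250 and 1378 reads in the 3 libraries, so near each other that they cannot be read as separate levels. Tested row by row, all 9 fell in both lines against S2-007, by between 4.26 and 5.84 on the log2 scale in S2-028 and by between 2.88 and 4.96 in S2-020.

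Counts above the lowest row of the same library were compared as a description, a step chosen after the rows had been seen. Of these, UGT1A10 made up 56.4% to 59.2% in S2-007, 49.9% to 55.1% in S2-020 and 57.8% to 66.2% in S2-028. The share of UGT1A1 was 24.9% to 25.8% in S2-007, 3.52% to 11.5% in S2-020 and 4.86% to 7.85% in S2-028, so that the S2-007 libraries lay above all others. It rests on 2881, 3499 and 2778 reads above the lowest row in S2-007. In S2-020 it rests on 120, 86 and 22, and in S2-028 on 39, 50 and 21, so shares there are rough. The share of UGT1A8 was 13.2% to 20.3% in S2-020, 1.15% to 1.28% in S2-007 and 0 to 4.71% in S2-028, again without overlap between S2-020 and the others. It rests on 137, 145 and 127 reads above the lowest row in S2-020 and on 0, 30 and 9 in S2-028. In the row-by-row fit UGT1A8 was lower in S2-028 than in S2-020 (log2 fold change -2.08, SE 0.294, adjusted p = 8.19e-06), and so were UGT1A9 (-1.32, adjusted p = 0.00184) and UGT1A1 (-0.91, adjusted p = 0.0285), whereas the other 6 rows did not pass. UGT1A9 lay only 11, 48 and 29 reads above the lowest row in S2-020 and 3, 0 and 12 in S2-028. Its call therefore cannot be read as a difference of that form alone. The same holds for the call of UGT1A1, whose reads above the lowest row overlapped between S2-020 and S2-028.

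**Figure D3:**
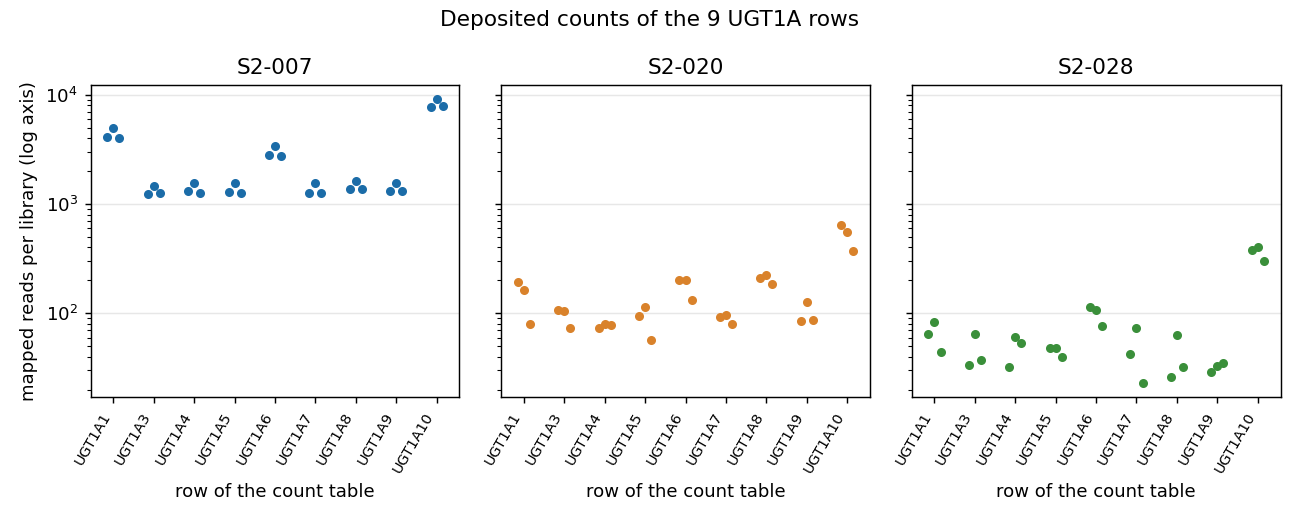
Deposited counts of mapped reads (log axis) in the 9 UGT1A rows, with 1 panel per subline and 1 point per library. UGT1A10 is the highest row in every library, and 6 rows lie at nearly the same height in S2-007, between 1235 and 1631 reads.

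The UGT2 genes, which mainly conjugate steroids and bile acids, are not part of that locus and lie on chromosome 4. Of the 10, UGT2B7 alone was called, and it was low throughout, at a mean of 0.637 CPM in S2-007, 0.0949 in S2-020 and 0.0532 in S2-028. Against S2-007 it was lower in S2-028 (log2 fold change -3.53, adjusted p = 4.96e-04) and in S2-020 (-2.77, adjusted p = 4.92e-04). In S2-028 against S2-007, 7 of the 10 were too low to be tested.

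The supply of the co-substrate was followed through a list of 3 genes. UGDH, which makes UDP-glucuronate, had a mean of 137 CPM in S2-007, 82 in S2-020 and 69.7 in S2-028, and was lower in both lines against S2-007 (log2 fold changes -0.77 and -0.97). SLC35D1, which carries it into the endoplasmic reticulum, was lower in S2-028 (-0.86, adjusted p = 1.85e-08) and was not called in S2-020 (-0.35). UGP2 was not called in any comparison, so 2 of the 3 genes were lower in S2-028 and 1 of 3 in S2-020. Of all genes tested, 8.17% and 12.1% were lower in these lines than in S2-007.

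CYP27A1, the mitochondrial sterol 27-hydroxylase that starts the acidic route to bile acids, showed the largest rise of any member in both comparisons with S2-007. It lies at chr2:218782147-218815293. Its level was 2.48, 2.02 and 1.98 CPM in S2-007, 101, 104 and 92.2 in S2-020, and 40, 35 and 37.7 in S2-028. The 3 lines did not overlap, with S2-020 highest and S2-007 lowest. It was 44.8-fold higher in S2-020 than in S2-007 (log2 fold change 5.49, SE 0.0936, adjusted p = 1.42e-19) and 17.4-fold higher in S2-028 (4.12, SE 0.119, adjusted p = 1.18e-16). It was 2.64-fold lower in S2-028 than in S2-020 (-1.40, SE 0.0679, adjusted p = 2.24e-12). None of its transcript was found in another gene, and the median log2 fold change of its 50 nearest genes was -0.12 in S2-028 and -0.22 in S2-020 against S2-007.

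CYP51A1, the lanosterol demethylase of cholesterol synthesis, had a mean of 57.5 ± 1.98 CPM (SD, n = 3) in S2-007, 69.5 ± 3.17 in S2-020 and 62.5 ± 2.8 in S2-028 and was not called in any comparison. In GENCODE v44, 90.1% of its exon bases lay under other annotated genes. Whether those genes were in the annotation used for counting is not known here, so its reads may not belong to it alone. CYP39A1, an oxysterol hydroxylase, was near 1 CPM and was called lower in S2-020 than in S2-007 (log2 fold change -0.98, SE 0.342, adjusted p = 0.0276). That call was lost in DESeq2, in the test against a 1.5-fold change, and without S2-007 replicate 1 or 2 or S2-020 replicate 1 or 3, where the values lay between -1.01 and -0.71. CYP7B1 was at 1.24 to 1.66 CPM and was not called, and CYP7A1, CYP8B1 and CYP46A1 were under 1 CPM.

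Within families 1 to 3, CYP2S1, an extrahepatic enzyme of epithelia, was the most abundant. It had 128, 138 and 159 CPM in S2-007, 384, 369 and 343 in S2-020, and 395, 373 and 396 in S2-028. All libraries of S2-020 and S2-028 lay above those of S2-007, and these 2 lines overlapped each other. It was 2.75-fold higher in S2-028 (log2 fold change 1.46, SE 0.0678, adjusted p = 2.64e-13) and 2.52-fold higher in S2-020 (1.34, SE 0.0649, adjusted p = 1.30e-12) than in S2-007, and the difference between S2-028 and S2-020 did not pass (0.09, SE 0.0516, adjusted p = 0.206). The 50 nearest genes on chromosome 19 had a median of 0.33 and 0.27 in the comparisons with S2-007, in the same direction and smaller.

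CYP2B6, which oxidizes bupropion and other drugs, was highest in S2-028. Its level was 3.89, 5.29 and 3.76 CPM in S2-007, 1.35, 1.83 and 1.67 in S2-020, and 17.7, 15.4 and 18.9 in S2-028, without overlap between the lines. It was 4.03-fold higher in S2-028 than in S2-007 (log2 fold change 2.01, SE 0.143, adjusted p = 2.53e-10), 2.72-fold lower in S2-020 than in S2-007 (-1.45, SE 0.204, adjusted p = 7.16e-06) and 10.7-fold higher in S2-028 than in S2-020 (3.42, SE 0.147, adjusted p = 3.39e-13). Of its transcript, 27% in words of 31 bases occurred in other genes, led by the pseudogene CYP2B7P. CYP2B7P had a mean of 3.61, 2.82 and 3.52 CPM in the same order and was not called.

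CYP1A1 and CYP1B1, which activate polycyclic aromatic hydrocarbons and are known targets of the receptor AHR, were lowest in S2-020. CYP1A1 had 2.65, 2.57 and 2.69 CPM in S2-007, 0.445, 0.673 and 0.53 in S2-020, and 3.69, 6.07 and 4.93 in S2-028. The lines did not overlap. It was 4.87-fold lower in S2-020 than in S2-007 (log2 fold change -2.28, SE 0.251, adjusted p = 2.58e-07), 1.86-fold higher in S2-028 than in S2-007 (0.90, SE 0.195, adjusted p = 8.88e-04) and 8.86-fold higher in S2-028 than in S2-020 (3.15, SE 0.25, adjusted p = 3.56e-09). In the test against a 1.5-fold change the call in S2-028 against S2-007 was lost. CYP1B1 had a mean of 127 ± 9.67 CPM (SD, n = 3) in S2-007, 73.9 ± 4.88 in S2-020 and 122 ± 7.87 in S2-028, and was lower in S2-020 than in S2-007 (-0.82, adjusted p = 3.72e-09) and higher in S2-028 than in S2-020 (0.72, adjusted p = 1.76e-08). CYP1A2 was near 1 CPM in all lines and not called.

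AHR itself, named here after its values were seen, had a mean of 54.3 CPM in S2-007, 25 in S2-020 and 80.2 in S2-028. It was lower in S2-020 than in S2-007 (log2 fold change -1.15, adjusted p = 2.37e-10) and higher in S2-028 than in S2-020 (1.68, adjusted p = 5.97e-13), and its log2 fold change of 0.57 in S2-028 against S2-007 was just under the 1.5-fold limit. AHRR, from the list of receptors below and also named with its values seen, did not follow AHR. Its mean was 67.9 CPM in S2-007, 66.7 in S2-020 and 46.7 in S2-028. No comparison called it (log2 fold changes -0.06 in S2-020 and -0.54 in S2-028 against S2-007), and it was lowest in S2-028. Whether AHR has a part in the levels of CYP1A1 and CYP1B1 was not tested.

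The CYP3A genes, whose products oxidize many drugs, differed among themselves. CYP3A5 had a mean of 66.6 ± 11 CPM (SD, n = 3) in S2-007, 64.7 ± 4.3 in S2-020 and 33.7 ± 2.76 in S2-028. It was 1.98-fold lower in S2-028 than in S2-007 (log2 fold change -0.98, SE 0.101, adjusted p = 7.04e-08) and 1.92-fold lower than in S2-020 (-0.94, SE 0.0744, adjusted p = 3.29e-09). CYP3A4 lay at 19.6 CPM in S2-007, 14.7 in S2-020 and 15.3 in S2-028 and was not called in any comparison. CYP3A7, under 1 CPM throughout, was lower in S2-028 (0.0743 CPM) than in S2-020 (0.502 CPM) by a log2 fold change of -2.72 (adjusted p = 0.00342). Of the transcripts, 72.9% of CYP3A7, 22.7% of CYP3A4 and 13.6% of CYP3A5 occurred in other genes, led by CYP3A genes or their read-through forms. The read-through row CYP3A7-CYP3A51P, which overlaps CYP3A7, was at 0.425 CPM in S2-020 and 0.0427 in S2-028, so the reads of these 2 rows cannot be told apart and the CYP3A7 call is uncertain.

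CYP2C18, a CYP2C gene known from epithelia outside the liver, reached 1 CPM in S2-007 and in neither of the other lines. It had 3.75, 5.21 and 3.76 CPM in S2-007, 0.348, 0.0601 and 0.167 in S2-020, and 0.0644, 0.219 and 0.0656 in S2-028. Both other lines overlapped each other and lay below S2-007. It was 35.6-fold lower in S2-028 (log2 fold change -5.15, SE 0.359, adjusted p = 1.84e-10) and 22.9-fold lower in S2-020 (-4.52, SE 0.364, adjusted p = 3.00e-09). The log2 fold change was -5.99 without S2-028 replicate 2 and, for S2-020, -5.27 without its replicate 1, and both passed the test. In GENCODE v44, 41.1% of its transcript occurred in other genes, led by 1 that overlaps it. CYP2E1, the ethanol-oxidizing P450, was at 1.58, 0.534 and 1.75 CPM and was lower in S2-020 than in S2-007 (-1.58, adjusted p = 5.99e-04) and higher in S2-028 than in S2-020 (1.70, adjusted p = 3.27e-04).

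The CYP4F genes, whose products hydroxylate leukotrienes and fatty acids at the omega end, lie together on chromosome 19, and 3 of them were highest in S2-007. CYP4F3 (chr19:15640897-15662825) had 15.6, 15.8 and 15.3 CPM in S2-007, 1.56, 1.49 and 1.35 in S2-020, and 2.01, 2.71 and 3.21 in S2-028. CYP4F12 (chr19:15673087-15697174) had 12.5, 13.5 and 14.2 CPM in S2-007, 0.473, 1.05 and 0.39 in S2-020, and 0.225, 0.282 and 0.426 in S2-028. CYP4F11 (chr19:15912377-15934867) had 22.6, 25.5 and 29.2 CPM in S2-007, 0.807, 0.938 and 0.697 in S2-020, and 4.85, 5.12 and 5.18 in S2-028. For each of the 3 genes every S2-007 library lay above every other library.

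The size of the fall differed by gene and line. In S2-028 against S2-007, CYP4F12 was 42.7-fold lower (log2 fold change -5.42, SE 0.203, adjusted p = 6.97e-15), CYP4F3 5.88-fold lower (-2.55, SE 0.152, adjusted p = 1.52e-11) and CYP4F11 5.09-fold lower (-2.35, SE 0.112, adjusted p = 4.14e-13). In S2-020 against S2-007, CYP4F11 was 32.1-fold lower (-5.01, SE 0.14, adjusted p = 2.28e-16), CYP4F12 21-fold lower (-4.39, SE 0.23, adjusted p = 4.12e-12) and CYP4F3 10.8-fold lower (-3.44, SE 0.13, adjusted p = 2.62e-14). CYP4F11 was 6.18-fold higher in S2-028 than in S2-020 (2.63, SE 0.205, adjusted p = 2.77e-09) and CYP4F3 1.8-fold higher (0.85, SE 0.232, adjusted p = 0.00573), whereas CYP4F12 did not pass (-1.03, SE 0.497, adjusted p = 0.114). In the test against a 1.5-fold change this call of CYP4F3 was lost. Without S2-020 replicate 2 the log2 fold change of CYP4F12 in S2-020 against S2-007 was -4.98. With all 9 libraries in the fit CYP4F12 was called lower in S2-028 than in S2-020 (-1.05). CYP4F8 was at 0.745 CPM or less and not called, and CYP4F2 and CYP4F22 were too low to be tested.

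The genes around the cluster did not move as one. Within 500 kb of the CYP4F3 start, 17 other genes were tested in each comparison, with a median log2 fold change of 0.02 in S2-028 and 0.01 in S2-020 against S2-007. Of these, 4 were higher and 2 lower in S2-028 (against 10.2% and 8.17% of all genes tested). In S2-020 none was higher and 4 were lower (against 9.57% and 12.1%). LOC124900418 and HSH2D were lower in S2-020 (-7.13 and -2.57) and higher in S2-028 (2.59 and 0.92). The pseudogene CYP4F24P, which shares sequence with CYP4F12 and is counted among the other genes, was lower in both lines (-2.02 and -3.03). UCA1, a non-coding RNA gene that starts 188 kb from CYP4F3, between CYP4F12 and CYP4F11, had 61.4, 54.3 and 46.3 CPM in S2-007, 0.0696, 0.0842 and 0.0697 in S2-020, and 342, 390 and 321 in S2-028. It was lower in S2-020 (-9.50, adjusted p = 7.6e-19) and higher in S2-028 (2.70, adjusted p = 1.85e-15) than in S2-007. LOC124900418 starts at the same distance of 188 kb and moved in the same directions as UCA1, so these may not be separate genes in the counts above. Of the transcripts, 23% of CYP4F3, 16.4% of CYP4F12 and 7.55% of CYP4F11 occurred in other genes, led by genes of this cluster.

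**Figure D4:**
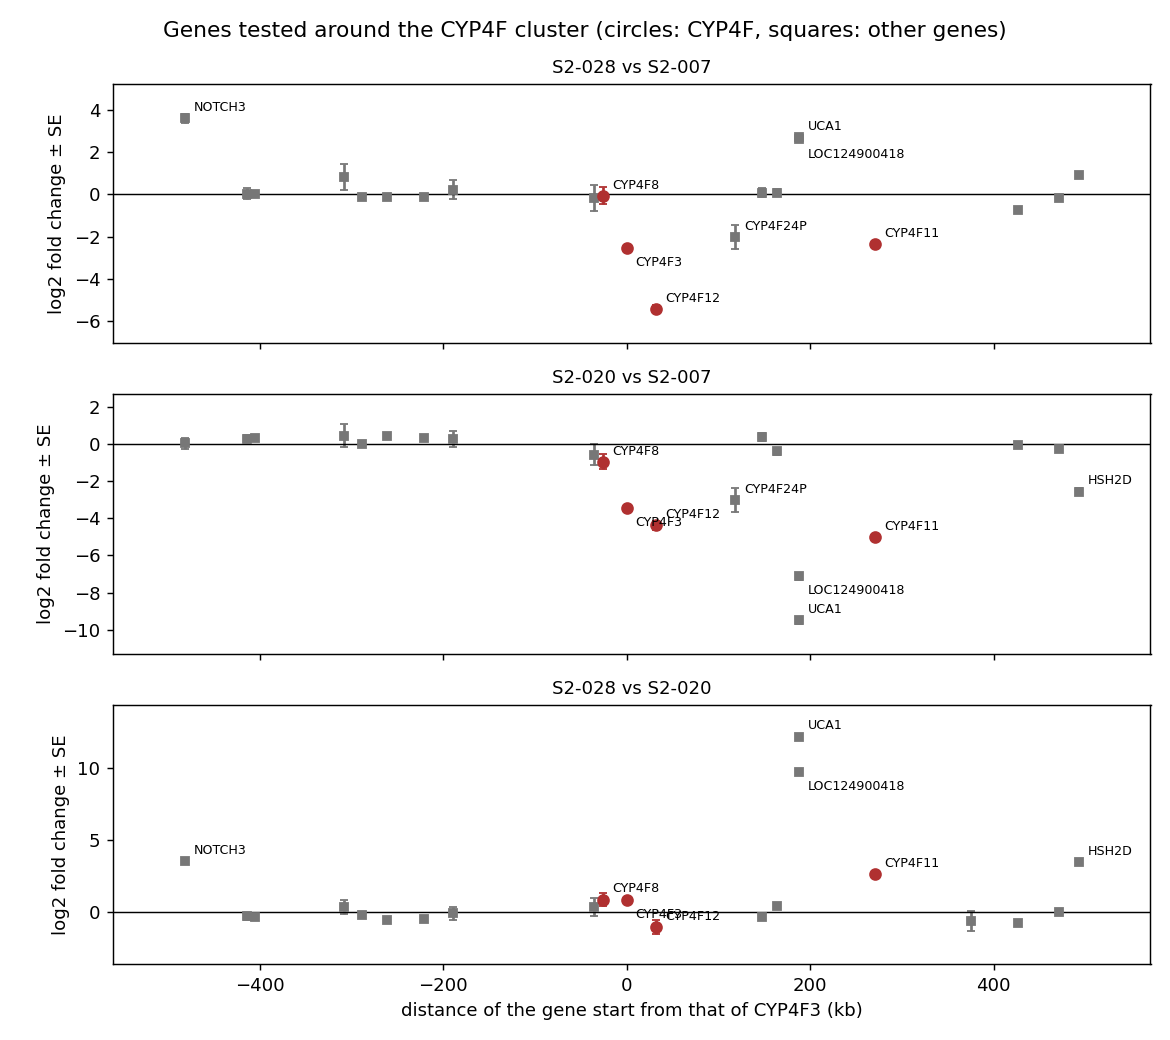
Log2 fold changes with standard errors of all genes tested within 500 kb of the CYP4F3 start, against the distance of their own starts in kb, with 1 panel per comparison (red circles are CYP4F genes, grey squares other genes). CYP4F3, CYP4F12 and CYP4F11 lie below 0 in both comparisons with S2-007, while UCA1, between them, lies at 2.70 in S2-028 and at -9.50 in S2-020.

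CYP2U1, CYP2J2 and CYP4V2, other fatty acid P450 genes, did not share the fall of the CYP4F genes. CYP2U1, which hydroxylates arachidonic acid, had 4.05, 2.89 and 3.61 CPM in S2-007, 9.87, 9.47 and 12.6 in S2-020, and 7.15, 6.29 and 6.11 in S2-028. The lines did not overlap, and it was higher in S2-020 (log2 fold change 1.56, SE 0.153, adjusted p = 5.43e-08) and in S2-028 (0.89, SE 0.169, adjusted p = 2.22e-04) than in S2-007 and lower in S2-028 than in S2-020 (-0.70, adjusted p = 2.77e-04). In the test against a 1.5-fold change the call in S2-028 was lost against S2-007 and against S2-020, and without S2-020 replicate 3 the latter was lost too (-0.57). CYP2J2, the arachidonic acid epoxygenase, was at 1.09 CPM in S2-007, 0.754 in S2-020 and 2.88 in S2-028, and was higher in S2-028 than in S2-007 (1.41, adjusted p = 5.75e-05) and than in S2-020 (1.93, adjusted p = 1.97e-06). CYP4V2 rose from 11.8 to 18.3 CPM in S2-028 against S2-007 (0.63, adjusted p = 3.70e-05), a call lost without S2-028 replicate 1 (0.58) and in the test against a 1.5-fold change, and it was not called in the other comparisons.

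CYP26B1, which breaks down retinoic acid, was highest in S2-020 and lowest in S2-028. It had 3.85, 5.99 and 6.38 CPM in S2-007, 19.7, 18.7 and 21.9 in S2-020, and 2.24, 2.16 and 1.84 in S2-028, with no overlap between the lines. It was 3.64-fold higher in S2-020 than in S2-007 (log2 fold change 1.86, SE 0.141, adjusted p = 1.20e-09), 2.59-fold lower in S2-028 than in S2-007 (-1.37, SE 0.206, adjusted p = 1.44e-05) and 9.64-fold lower in S2-028 than in S2-020 (-3.27, SE 0.13, adjusted p = 1.16e-13). CYP26A1, its close relative, stayed under 1 CPM and went the other way between these lines, at 0.0958 CPM in S2-020 and 0.592 in S2-028 (2.60, adjusted p = 0.00168). CYP26C1 was too low to be tested.

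Other genes of retinoid handling were taken from a list of 15. In S2-028 against S2-007, 4 were higher and 5 lower of 14 tested (against 10.2% and 8.17% of all genes tested). In S2-020 against S2-007, 3 were higher and 7 lower of 14 (against 9.57% and 12.1%). In S2-028 against S2-020, 5 were higher and 2 lower of 13 (against 12.1% and 10.1%). DHRS9, a retinol dehydrogenase, had a mean of 28.3 CPM in S2-007, 0.0787 in S2-020 and 0.107 in S2-028. CRABP2, which carries retinoic acid to its receptor, was at 1.16, 0.592 and 73.7 CPM and was higher in S2-028 than in S2-007 (5.99, adjusted p = 6.55e-16). STRA6, a membrane receptor for retinol uptake, was higher in both lines than in S2-007 (1.31 in S2-028 and 0.94 in S2-020).

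The vitamin D genes all reached 1 CPM. CYP24A1, which inactivates calcitriol and is a known target of the vitamin D receptor VDR, had a mean of 4.19 ± 0.744 CPM (SD, n = 3) in S2-007, 1.42 ± 0.486 in S2-020 and 8.33 ± 0.156 in S2-028. It was lower in S2-020 than in S2-007 (log2 fold change -1.60, SE 0.238, adjusted p = 1.38e-05), higher in S2-028 than in S2-007 (0.99, SE 0.157, adjusted p = 2.93e-05) and higher in S2-028 than in S2-020 (2.55, SE 0.204, adjusted p = 3.79e-09). VDR, named here after its values were seen, was at 47.3 CPM in S2-007, 10.6 in S2-020 and 43.1 in S2-028. It was lower in S2-020 than in S2-007 (-2.19, adjusted p = 2.88e-14) and was not called in S2-028 against S2-007 (-0.13), and its part in the level of CYP24A1 was not tested.

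CYP27B1, which makes calcitriol, was at 1.64, 2.69 and 4.23 CPM and was called higher in all 3 comparisons (log2 fold changes 1.37 in S2-028 and 0.68 in S2-020 against S2-007, and 0.66 in S2-028 against S2-020). The last 2 calls were lost in the test against a 1.5-fold change. The call in S2-020 was also lost without S2-020 replicate 1 (0.62) or 3 (0.59), and that between S2-028 and S2-020 without S2-028 replicate 3 (0.56) or S2-020 replicate 2 (0.51). Its 50 nearest genes on chromosome 12 had a median of 0.94 in both comparisons with S2-007, so the rise of CYP27B1 in S2-020 was no larger than that of its surroundings. CYP2R1, the 25-hydroxylase, had 9.04, 6.28 and 6.86 CPM and was not called.

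CYP27C1 and CYP20A1, grouped here as members of unsettled role, both passed 10 CPM. CYP27C1, a mitochondrial P450 that can desaturate retinoids, had 13.8, 14.2 and 14.7 CPM in S2-007, 26.2, 27.2 and 27.9 in S2-020, and 11.5, 10.3 and 10.2 in S2-028, without overlap. It was higher in S2-020 than in S2-007 (log2 fold change 0.90, SE 0.0791, adjusted p = 1.14e-08) and lower in S2-028 than in S2-020 (-1.34, SE 0.0918, adjusted p = 3.84e-10), whereas in S2-028 against S2-007 the change of -0.41 did not reach 1.5-fold. CYP20A1 lay at 32.6 ± 1.7, 29.9 ± 0.323 and 33.9 ± 2.12 CPM (SD, n = 3) and was not called in any comparison.

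Of 7 partners that pass electrons to P450 enzymes, none was higher in any comparison. Against S2-007, 1 was lower in S2-028 and 1 in S2-020 (8.17% and 12.1% of all genes tested were lower). None was called between S2-028 and S2-020. CYB5R3, the cytochrome b5 reductase, was lower in S2-028 than in S2-007 (266 against 145 CPM, log2 fold change -0.87, adjusted p = 2.05e-10). POR, the common reductase, was lower in S2-020 than in S2-007 (106 against 65.7 CPM, -0.71, adjusted p = 1.53e-09), and its log2 fold change in S2-028 was -0.21.

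Of 29 nuclear receptors and liver or gut transcription factors, 28 were tested in each comparison. In S2-028 against S2-007, 5 were higher and 10 lower (against 10.2% and 8.17% of all genes tested). In S2-020 against S2-007, 2 were higher and 17 lower (against 9.57% and 12.1%). In S2-028 against S2-020, 8 were higher and 5 lower (against 12.1% and 10.1%). HNF4A, a master regulator of liver and gut epithelium, had a mean of 229 CPM in S2-007, 28.2 in S2-020 and 25 in S2-028, and was lower in both lines than in S2-007 (log2 fold changes -3.05 and -3.19, adjusted p = 1.82e-18 and 7.82e-18 by edgeR). NR1H4, the bile acid receptor, fell from 8.66 CPM to 0.816 and 0.267 (-3.45 and -5.01), and HNF4G from 22.9 to 12.3 and 4.68 (-0.93 and -2.29). FOXA2 was higher in S2-028 (13.5 CPM) than in S2-007 (2.54 CPM) by 2.41 on the log2 scale and lower in S2-020 (1.2 CPM). NR1I2, named here after its values were seen, was low, at 1.48 CPM in S2-007, 0.396 in S2-020 and 0.118 in S2-028. It was lower in both lines than in S2-007 (-1.92 and -3.62), whereas CYP2B6 was lower in S2-020 and higher in S2-028. The part of these factors in the levels of UGT1A, CYP2B6, CYP2C18 or the CYP4F genes was not tested.

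**Figure D5:**
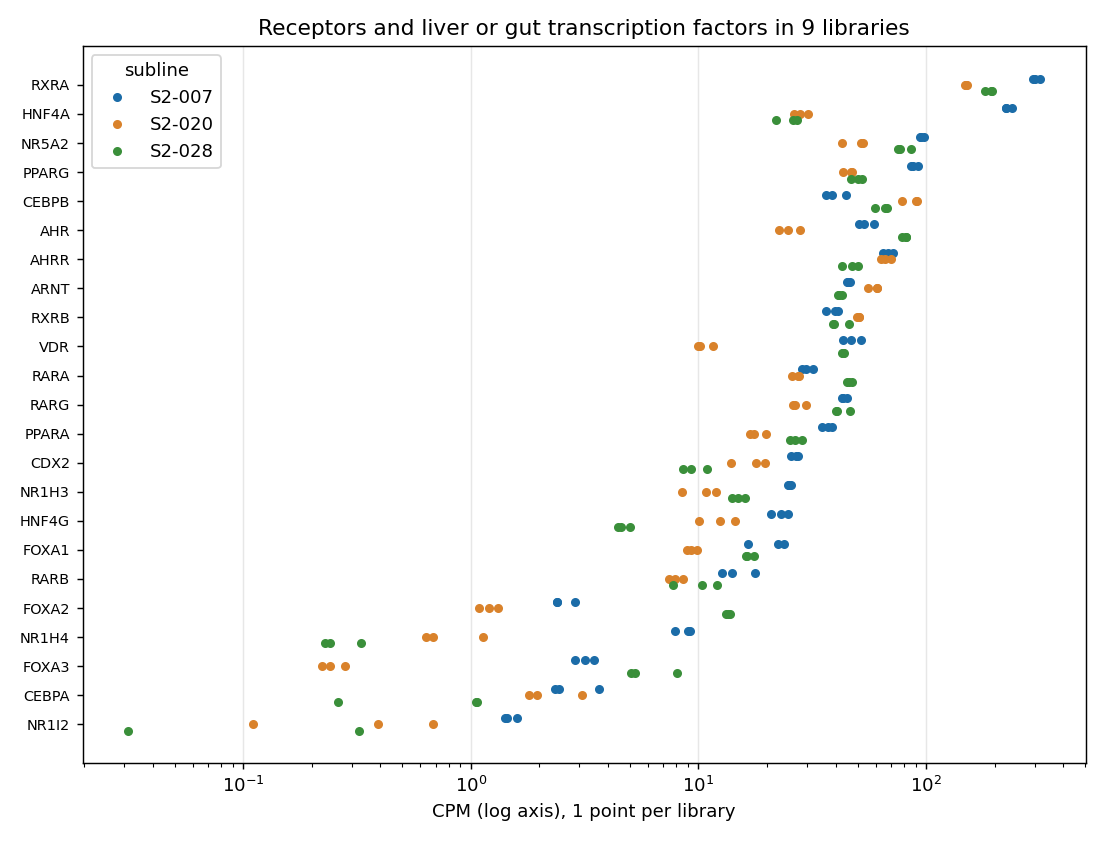
CPM on a log axis of 23 receptors and transcription factors that reached 1 CPM in a line, with 1 point per library coloured by subline. A library of S2-028 with 0 CPM of NR1I2 has no point on the log axis. HNF4A and NR1H4 are highest in all S2-007 libraries, whereas AHR and VDR are lowest in all S2-020 libraries.

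Markers of gut epithelium moved with part of this pattern. Of 12 enterocyte markers, 9 were tested in each comparison with S2-007. In S2-028, 6 were lower and none higher (against 8.17% and 10.2% of all genes tested). In S2-020, 6 were lower and 1 higher (against 12.1% and 9.57%). LGALS4 was at 207 CPM in S2-007, 95.5 in S2-020 and 0.161 in S2-028, and ANPEP at 146, 682 and 0.185 CPM in that order. LGALS4 was lower in S2-020 than in S2-007 (log2 fold change -1.15, adjusted p = 2.10e-09), whereas ANPEP was higher (2.19, adjusted p = 1.43e-14). The defining markers SI, ALPI and APOA4 were under 0.1 CPM in every line. LYZ, which is not of this list but of the 12 markers of fibroblasts, endothelium and blood cells, was at 332, 2.57 and 2.12 CPM in that order. Of those 12, 9 were tested in each comparison with S2-007. In S2-028, 2 were higher and LYZ alone was lower. In S2-020 none was higher and 2 were lower, so that list as a whole did not share the fall of LYZ. The part of these markers in the results on UGT1A, CYP4F and CYP2C18 was not tested.

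Other drug-metabolizing enzymes, from a list of 38, were counted in the same way. In S2-028 against S2-007, 2 were higher and 4 lower of 30 tested (against 10.2% and 8.17% of all genes tested). In S2-020 against S2-007, 1 was higher and 8 lower of 31 (against 9.57% and 12.1%). In S2-028 against S2-020, 5 were higher and 4 lower of 30 (against 12.1% and 10.1%). CES2, a carboxylesterase, was lower in S2-028 than in S2-007 (45.4 against 90.9 CPM, adjusted p = 4.05e-11). GSTM4, a glutathione transferase, was lower in the same comparison (log2 fold change -2.24), and SULT2B1, a cholesterol sulfotransferase, was higher (1.52). Of 5 P450 or UGT genes outside the symbol rule, none was called in S2-028 against S2-007, UGT8, which makes galactosylceramide, was higher in S2-020 than in S2-007 (0.73), and TBXAS1, thromboxane synthase, was lower in S2-028 than in S2-020 (-0.71).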

How the data were processed

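RNA of the 3 sublines was sequenced from strand-specific, poly(A)-selected libraries, 3 per line. According to the submitters' processing notes and the methods, Trimmomatic 0.39 removed poor reads and BWA 0.7.17 placed the rest on GRCh38.p14. The authors deposited counts of mapped reads per gene, whole numbers without normalization. How reads with several matches were counted is not given in the sources used here, which bears on UGT1A, CYP2B6 and CYP3A. Because BWA is not a spliced aligner, reads over junctions can be lost. The table's 18 columns of normalized values and 2 rows that name no gene were not used. Of the gene identifiers 99.6% matched RefSeq's table of the same build.

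The analysis used edgeR 4.0.16 in R 4.3.3. UGT1A rows were summed, low rows dropped by filterByExpr (min.count 10, min.total.count 15), libraries scaled by TMM, and the 6 libraries of each comparison fitted with glmQLFit and glmQLFTest. Calls needed an adjusted p (Benjamini-Hochberg) below 0.05 together with an absolute log2 fold change of 0.585 or more. The script was tested on simulated data. The floor was set at 3 counts and covers counting error only. CPM use TMM factors from all 9 libraries, so ratios of CPM can differ slightly from fold changes. DESeq2 1.42.0, other normalizations and filters and leaving out each library were alternatives. Described singly were members called with at least 1 CPM in a line and members with at least 10 CPM, and of each list at most 4 genes, those called in S2-028 against S2-007 with the smallest adjusted p. POR, UGP2, UGT8, TBXAS1, AHR, AHRR, NR1I2, VDR, the neighbours of the CYP4F genes and single markers were also named with their values known. Some genes of the lists are not reported here by name. Members, lists and motifs were chosen with earlier results of these data known.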

Additional observations from a re-analysis of the deposited data

How the results depend on the processing

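Over the 69 results for single genes, 1032 values were computed under the alternatives. Of these, 1004 kept their direction and their side of the threshold, 23 kept the direction but lost the call, 1 gained a call and 4 changed sign. The 4 sign changes were in differences that were not called: CYP3A5 in S2-020 against S2-007 was 0.02 without S2-007 replicate 1 and 0.01 without S2-007 replicate 2 (range over libraries left out -0.18 to 0.02), CYP2C18 in S2-028 against S2-020 was 0.05 without S2-020 replicate 1 (-1.51 to 0.05), and CYP3A4 in S2-028 against S2-020 was -0.09 without S2-028 replicate 1 (-0.09 to 0.17). Leaving out 1 library at a time gave 8 to 9 members higher and 8 lower in S2-028 than in S2-007, 5 to 7 higher and 11 to 15 lower in S2-020 than in S2-007, and 9 to 11 higher and 6 to 7 lower in S2-028 than in S2-020. No alternative moved a count of called members by more than 1.5-fold. The largest move was that of members higher in S2-028 than in S2-007, which numbered 6 in the test against a 1.5-fold change and 9 in the main test. The median log2 fold change of all genes moved by at most 0.03 with other scalings.

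Replicate numbers did not pair the libraries, since the correlation of deviations between libraries of the same number lay between -0.0218 and 0.014. With the number as a replicate block, 9 members were higher and 8 lower in S2-028 than in S2-007, 6 higher and 12 lower in S2-020 than in S2-007, and 10 higher and 7 lower in S2-028 than in S2-020, the counts found without it. For members under 1 CPM the depth is the limit, as 18 to 22 of the 67 could not be tested in a comparison.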

Other observations

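Of 15 further rows whose symbols start with CYP or UGT (pseudogenes, antisense and read-through loci), 14 had a mean under 1 CPM in every line. The remaining row was CYP2B7P.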
